A study of Mus musculus with 4 samples.

Results

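Transcribed loci without a gene symbol were examined in RNA sequencing of mouse lenses. A locus was taken when its row carried no symbol, its listed span was at least 600 bases, its status was not FAIL and its level was at least 1 FPKM in all 4 libraries. These measured values chose the members, which were selected on level and span. FPKM is the number of fragments scaled to transcript length and sequencing depth, and FAIL marks a level that the authors' software could not estimate. Rows at an identical position were counted once, at the row of highest mean FPKM. This gave 1502 loci among 27663 distinct spans in the tables. The 4 libraries were N101D and WT lenses at 2 months and N101D and WT lenses at 4 months, with 1 library per group. All mice were C57BL/6 and all carried a transgene for alpha A crystallin, the chaperone of the lens. The transgene was CRYAAN101D in N101D mice, in which the asparagine is replaced as a model of its deamidation, and CRYAAWT in WT mice. The labels give neither the promoter of the transgene nor the number or sex of the animals behind a library, and no group without a transgene was analysed.

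Assembly of reads into transcripts reports every stretch of the genome that reads cover, whether or not an annotated gene lies there. Loci without a symbol can hold long noncoding RNAs, transcripts that leave a promoter in the direction away from its gene, retained introns, extended ends of known genes, processed copies of abundant genes or repeats. In the lens, fiber cells fill with crystallin messenger RNA and lose their nuclei as they mature, while a single layer of epithelial cells keeps dividing.

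A set of 27 loci ended or began within 250 bases before the listed start of a named gene. RefSeq promoters, from 250 bases before to 50 bases after the start, were on hand for 17 of the neighbouring genes. Those of 4 such neighbours are shown because they span the contrast in sequence at these starts. Lim2 encodes a membrane protein of lens fibers and Actr2 a subunit of the actin-nucleating complex. Picalm encodes a clathrin adaptor and Ankrd11 a chromatin regulator. Capitals mark each CG, and the sequences are from RefSeq on GRCm38.p6.
Lim2, chr7:43429849-43430148, plus strand: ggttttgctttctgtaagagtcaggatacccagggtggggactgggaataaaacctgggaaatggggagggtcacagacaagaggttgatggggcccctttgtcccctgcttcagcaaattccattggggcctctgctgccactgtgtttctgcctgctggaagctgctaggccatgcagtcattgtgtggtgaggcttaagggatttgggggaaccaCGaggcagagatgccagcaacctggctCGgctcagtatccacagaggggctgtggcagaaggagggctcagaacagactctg
Actr2, chr11:20112902-20113201, minus strand: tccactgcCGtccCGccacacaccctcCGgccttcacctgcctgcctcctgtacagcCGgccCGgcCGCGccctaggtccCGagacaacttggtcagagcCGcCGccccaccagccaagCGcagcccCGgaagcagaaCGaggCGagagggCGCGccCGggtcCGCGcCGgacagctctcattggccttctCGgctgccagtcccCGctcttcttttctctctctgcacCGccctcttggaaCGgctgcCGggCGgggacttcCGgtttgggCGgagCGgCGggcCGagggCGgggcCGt
Picalm, chr7:90129963-90130262, plus strand: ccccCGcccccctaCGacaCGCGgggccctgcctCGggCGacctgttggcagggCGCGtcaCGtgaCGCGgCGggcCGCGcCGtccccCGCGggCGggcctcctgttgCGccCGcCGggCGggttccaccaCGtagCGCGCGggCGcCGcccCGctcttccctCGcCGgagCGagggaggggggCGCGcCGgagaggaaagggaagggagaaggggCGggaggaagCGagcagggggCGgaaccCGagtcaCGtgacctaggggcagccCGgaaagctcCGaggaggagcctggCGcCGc
Ankrd11, chr8:123042235-123042534, minus strand: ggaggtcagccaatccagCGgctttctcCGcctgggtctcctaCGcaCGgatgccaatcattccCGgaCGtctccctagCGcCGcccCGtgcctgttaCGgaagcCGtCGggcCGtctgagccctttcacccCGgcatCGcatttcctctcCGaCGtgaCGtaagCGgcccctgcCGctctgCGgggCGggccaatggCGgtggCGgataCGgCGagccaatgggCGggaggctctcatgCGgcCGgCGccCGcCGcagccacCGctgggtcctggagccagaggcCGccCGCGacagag
The Lim2 window held 2 CG, against 33 in Actr2, 44 in Picalm and 36 in Ankrd11. Over the 17 genes, each taken at the median of its promoters, the median was 31 CG per window, with a range of 1 to 50. Over all RefSeq promoters of that length the median was 7, each counted singly and whether or not its gene was measured here. At least 10 CG stood in 13 of the 17 genes so taken and in 43.5% of all promoters. The letters TATAAA, searched on both strands, were in any promoter of 1 of the 17 (Rai14) and in 13.6% of all promoters. These counts describe the letters in the windows and say nothing of a factor bound there.

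Another 16 loci shared a span with a microRNA gene or lay within 5000 bases of a listed span that holds one. Distances run to that span, which can hold a longer gene besides, so the microRNA itself can lie farther away. Of the 17 microRNA symbols beside these loci, 14 were matched in RefSeq, 12 of them on the chromosome of the locus. Mature sequences are shown for those nearest to a locus outside every named span, for a pair with 1 seed, and for miR-184, known as an abundant microRNA of the lens. MicroRNAs are short RNAs that pair with messages through their seed, bases 2 to 8, given here in capitals.
mmu-miR-32-5p: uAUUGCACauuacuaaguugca
mmu-miR-130a-3p: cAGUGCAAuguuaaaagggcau
mmu-miR-721: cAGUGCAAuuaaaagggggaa
mmu-miR-183-5p: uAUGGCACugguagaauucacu
mmu-miR-184-3p: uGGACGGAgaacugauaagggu
The seed AGUGCAA was shared by miR-130a-3p, whose gene shares a span with Ypel4 370 bases from XLOC_022125, and by miR-721, whose gene stands in the Cux1 span of XLOC_031860. XLOC_028274 lay 116 bases past the span of D730040F13Rik and Mir32. It measured 7.36 FPKM in N101D and 7.73 FPKM in WT at 2 months, and 8.95 FPKM in N101D and 8.64 FPKM in WT at 4 months. XLOC_033442 lay 3146 bases before Mir183 and measured 1.34 FPKM in N101D and 1.49 FPKM in WT at 2 months, and 2.11 FPKM in N101D and 2.39 FPKM in WT at 4 months. XLOC_022125 stayed between 2.70 and 3.59 FPKM and XLOC_042227, in the span of Ankrd34c and Mir184, between 1.13 and 1.57 FPKM. None of these 4 loci was 2-fold different in any of the 4 comparisons.

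The 1502 loci fell into 2 classes by what stands at the same position. At 1098 positions (73.1%) no named locus was listed, and these are called solitary here. At 404 positions (26.9%) the row without a symbol had exactly the span of 1 or more named rows, and these are called span-sharing. No neighbouring spans overlapped without being identical, so the listed span is a merged region and not the length of a transcript. The median span was 1268 bases for solitary loci and 81620 bases for span-sharing loci. In that sense the label "long" holds for the region and was not shown for the RNA. Solitary loci lay a median of 32164 bases from the nearest named locus. Of them 67 lay within 1000 bases of one, 190 within 5000 bases and 287 more than 100 kb away.

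**Figure D1:**
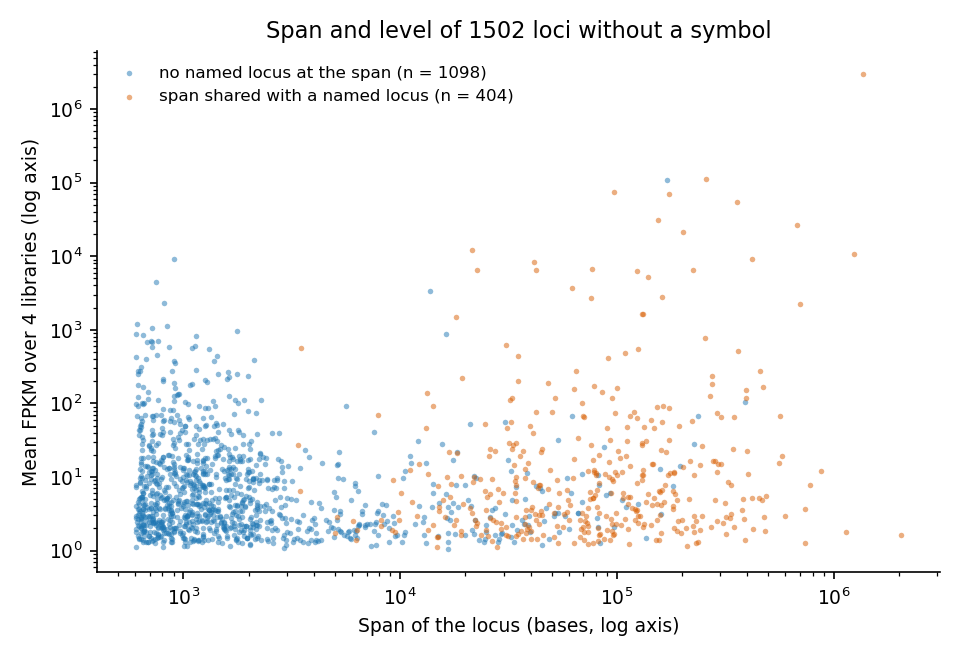
Mean FPKM over the 4 libraries (log axis) against the listed span (bases, log axis) for 1098 solitary loci and 404 span-sharing loci, each point 1 locus. Solitary loci gather at spans near 1268 bases and span-sharing loci near 81620 bases, while both classes run from near 1 FPKM to beyond 1000 FPKM.

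Levels were mostly low. The median of the mean FPKM was 4.94 over all 1502 loci, 4.53 over solitary loci and 6.06 over span-sharing loci. Under 5 FPKM stood 756 loci, and at 1000 FPKM or more stood 33, of which 25 were span-sharing. Rows in each chromosome fell into 3 blocks, of which the first follows the plus strand and the second the minus strand. The labels and headers do not say what the third block is. It held 1227 of the loci (81.7%), and 68.9% of all its rows had no symbol. For these loci a strand could not be assigned.

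Depth, recovered from the steps of low FPKM values, was 24.5 M fragments (N101D) and 49.8 M (WT) at 2 months, and 53.3 M (N101D) and 34.8 M (WT) at 4 months. A level of 1 FPKM over 1 kb of mappable starts corresponds to 24.5 reads in the shallowest library (95% Poisson interval 16.2 to 36.9) and 53.3 reads in the deepest (39.7 to 69.3). The intervals cover counting error only. Among 5032 single-row loci without a symbol in the third block, 334 (6.64%) held under 10 reads in the N101D library of 4 months, against 53.2% in the WT library of that age. At 2 months 67.4% were under 10 reads in N101D and 46.9% in WT. The minimum of 1 FPKM in all libraries removed such loci. The 826 solitary single-row loci of that block that met the rule held at least 11 reads in each library. The N101D library of 4 months (53.3 M fragments) and the WT library of 2 months (49.8 M) were near in depth. Their shares under 10 reads were 6.64% and 46.9%, and the cause was not tested. The N101D library of 2 months also stood apart in markers. Ddx3y, on the Y chromosome, was at 0.303 FPKM in it and at 10.03 FPKM in the WT library of that age, and at 5.51 FPKM (N101D) and 9.84 FPKM (WT) at 4 months. The 8 lens fiber markers measured summed to 212401 FPKM in N101D and 199560 FPKM in WT at 2 months, and to 135569 FPKM in N101D and 148974 FPKM in WT at 4 months. A sum of 12 genes of pigmented iris, ciliary body and pigment epithelium was 42.0 FPKM in N101D and 437 FPKM in WT at 2 months, and 386 FPKM in N101D and 352 FPKM in WT at 4 months. A sum of 10 retina genes was 419 FPKM in N101D and 465 FPKM in WT at 2 months. At 4 months it was 461 FPKM in N101D and 777 FPKM in WT. The sum of 5 blood genes was 147 FPKM in N101D and 349 FPKM in WT at 2 months. At 4 months it was 122 FPKM in N101D and 45.6 FPKM in WT, so that WT library stood apart in both lists. The part of these markers in the results was not tested. N101D against WT at 4 months and the age comparison in WT do not use the N101D library of 2 months. Both use the WT library of 4 months.

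The loci just before a gene start were mostly low. The 27 had a median mean level of 2.23 FPKM (range 1.26 to 3362). Of them 1 (3.7%), beside Hmox1, was 2-fold different by genotype or age in any of the 4 comparisons described further on, against 46 (4.19%) of all 1098 solitary loci. On the blocks that follow strand, 15 lay in the block opposite to their neighbour's and 2 in the same block, while 10 lay in the third block. XLOC_034713, 94 bases before Lim2 and in its block, measured 2.55 FPKM in N101D and 2.55 FPKM in WT at 2 months, and 1.84 FPKM in N101D and 1.94 FPKM in WT at 4 months. Lim2 itself was at 3910 FPKM in N101D and 3308 FPKM in WT at 2 months, and at 2719 FPKM in N101D and 3293 FPKM in WT at 4 months. The locus beside this abundant lens gene thus stood near the median of the set. XLOC_006744, 113 bases before Actr2, measured 8.33 FPKM in N101D and 9.78 FPKM in WT at 2 months, and 8.75 FPKM in N101D and 9.08 FPKM in WT at 4 months. XLOC_036018, 46 bases before Picalm and in the opposite block, stayed between 4.67 and 5.25 FPKM, and XLOC_040045, 114 bases before Ankrd11, between 3.798 and 5.11 FPKM. XLOC_009386 began 64 bases from the start of Dicer1, the nuclease that makes microRNAs. It measured 1.59 FPKM in N101D and 1.204 FPKM in WT at 2 months, and 1.72 FPKM in N101D and 1.48 FPKM in WT at 4 months, on 23 to 54 reads. XLOC_005680, 214 bases before Actg1, the gene of gamma actin, stayed between 1.90 and 3.40 FPKM while Actg1 ranged from 149 to 186 FPKM.

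Genotype differences at each age were taken as log2(FPKM + 1) in N101D minus WT, and a locus counted as 2-fold different at 1 or more in size. This scale understates differences of loci near 1 FPKM, and with 1 library per group there is no replicate check. At 2 months 54 of the 1502 loci (3.60%) were 2-fold different, 36 higher and 18 lower in N101D. The split turned to 22 higher and 41 lower after scaling to equal totals outside crystallins, and to 60 higher and 92 lower with no minimum FPKM. Those totals at 2 months were 263281 FPKM in N101D and 189094 FPKM in WT. Of them, 9 named genes of high FPKM, listed further on, held 82435 FPKM in N101D and 18485 FPKM in WT. The part of these 9 genes in the turned split was not tested. The wider set was 18298 rows of 1 FPKM or more in any library, of any span and with identical positions not merged. They are called loci below, and 5.86% were 2-fold different, 1.9% higher and 3.96% lower. Of 8768 loci with a symbol that meet the same rule, 1.84% were. At 4 months 33 loci (2.20%) were 2-fold different, 23 higher and 10 lower in N101D, against 3.91% of the 18298 loci (3.01% higher, 0.902% lower) and 0.536% of named loci by the same rule. The median difference over the members was 0.00 at 2 months and -0.01 at 4 months, against -0.07 and 0.04 over the 18298 loci. Most loci stood near equality, with 1304 (86.8%) within 0.5 log2 units at 2 months and 1363 (90.7%) at 4 months. Of the 18298 loci 81.5% and 84.7% did so, and of named loci by the same rule 91.6% and 95.6%.

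The 2 classes differed in these counts. At 2 months 43 of 404 span-sharing loci (10.6%) and 11 of 1098 solitary loci (1.00%) were 2-fold different. At 4 months 27 span-sharing (6.68%) and 6 solitary loci (0.546%) were. Named rows whose span is shared with rows without a symbol, 2285 in number, were 2-fold different in 1.71% of cases at 2 months and 0.438% at 4 months. The 826 solitary single-row loci of the third block gave 5 at 2 months and 1 at 4 months. The difference between the classes was not tested. Of the 33 loci of 1000 FPKM or more, 21 were 2-fold different at 2 months and 13 at 4 months. Of the 33, 25 were span-sharing, so level and class cannot be told apart here. The share among named loci or all loci of that level was not counted. Several of these levels are not possible at the listed span, as described further on.

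**Figure D2:**
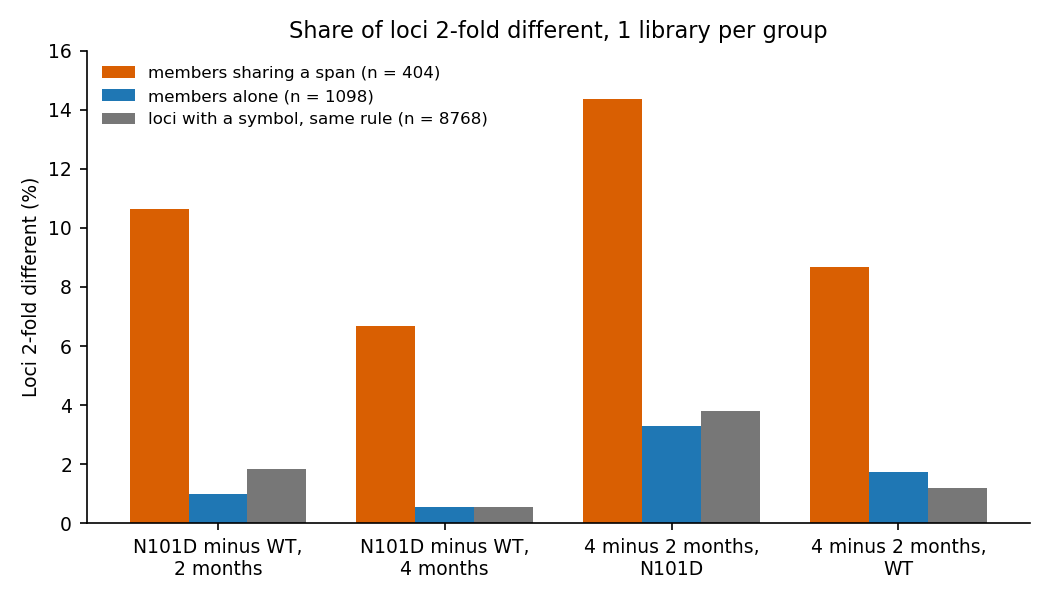
Percent of loci 2-fold different in each of 4 comparisons of single libraries, for 404 span-sharing loci, 1098 solitary loci ("members alone") and 8768 loci with a symbol by the same rule; each bar is 1 share and starts at 0. Span-sharing loci stand highest in every comparison, from 6.68% to 14.4%, while solitary loci run from 0.546% to 3.28%.

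In all, 11 loci were 2-fold higher in N101D at both ages, against 0.448% of the 18298 loci and 0.125% of named loci by the same rule, and 0 were 2-fold lower at both, against 0.0765% of the 18298 loci. Of the 11, 9 were span-sharing and 2 were solitary. XLOC_022317, solitary at chr2:98502389-98507488 (mm9) with Lrrc4c as the nearest named locus at a distance of 1030568 bases, measured 35.5 FPKM in N101D and 6.42 FPKM in WT at 2 months. At 4 months it measured 13.5 FPKM in N101D and 2.17 FPKM in WT, so the difference was 2.30 and 2.19 on the log2 scale. XLOC_033330, solitary at chr6:3150764-3151673 (mm9), measured 23457 FPKM in N101D and 5145 FPKM in WT at 2 months, and 5655 FPKM in N101D and 2429 FPKM in WT at 4 months. Its N101D values were the higher at each age, by 2.19 and 1.22. At its span of 909 bases these levels correspond to 427341 reads in N101D and 191768 reads in WT at 2 months, and to 223633 reads in N101D and 63481 reads in WT at 4 months. After quantile normalization its difference was 0.73 at 4 months, under 2-fold. Whether these solitary spans hold repeated sequence was not analysed here, since no genome of the files' build was on hand.

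The span-sharing loci of this group stood in spans of genes with unlike functions. XLOC_007437, in the span of Usp32, a ubiquitin protease, measured 60672 FPKM in N101D and 14928 FPKM in WT at 2 months, and 41898 FPKM in N101D and 7828 FPKM in WT at 4 months. Usp32 itself stood between 6.00 and 6.80 FPKM in all 4 libraries. XLOC_036997, in the span of the imprinted Snrpn, measured 198 FPKM in N101D and 87.5 FPKM in WT at 2 months, and 347 FPKM in N101D and 110 FPKM in WT at 4 months. XLOC_017352, in the span of Pisd-ps2, measured 10170 FPKM in N101D and 4810 FPKM in WT at 2 months, and 24424 FPKM in N101D and 8794 FPKM in WT at 4 months. The others were XLOC_022848 (Camk1d, a calmodulin-dependent kinase), XLOC_021247 (Ptprj, a receptor phosphatase), XLOC_042378 (Col6a6, a collagen VI chain), XLOC_006912 (Kcnip1 and Kcnmb1, potassium channel subunits), XLOC_023087 (Fam163b) and XLOC_042159 (Myo6 and Impg1). With quantile normalization, 2-fold was missed at 2 months by XLOC_007437 (0.98), XLOC_017352 (0.30) and XLOC_021247 (0.97), and at 4 months by XLOC_022848 (0.67). With equal totals outside crystallins it was missed by XLOC_017352 (0.60) and XLOC_036997 (0.70) at 2 months and by XLOC_042159 (0.99) at 4 months.

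A group of 8 loci followed the genotype differences of 9 named genes of high FPKM that were picked in an earlier analysis of these data (Kpna1, Filip1l, Zc3h7a, Jarid2, Lars2, Dnahc7b, Vwa3a, Mir715 and 2610528E23Rik). The median difference of the named genes was 2.22 (2 months) and 1.18 (4 months), and the 8 loci lay within 0.5 of both. They were XLOC_019341, XLOC_022848, XLOC_033330, XLOC_021247, XLOC_042378, XLOC_010992, XLOC_006912 and XLOC_023087, which is 0.533% of the 1502 loci. Of named loci by the same rule 12 (0.137%) lay as near, but 7 of those 12 are among the 9 genes that set the profile, so the shares are not compared. Likeness was over the 2 genotype differences only, and 7 of the 8 were span-sharing. XLOC_042378 measured 13516 FPKM in N101D and 2750 FPKM in WT at 2 months, and 3521 FPKM in N101D and 1166 FPKM in WT at 4 months. Col6a6, at the same span, did not exceed 0.0246 FPKM in any library.

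**Figure D3:**
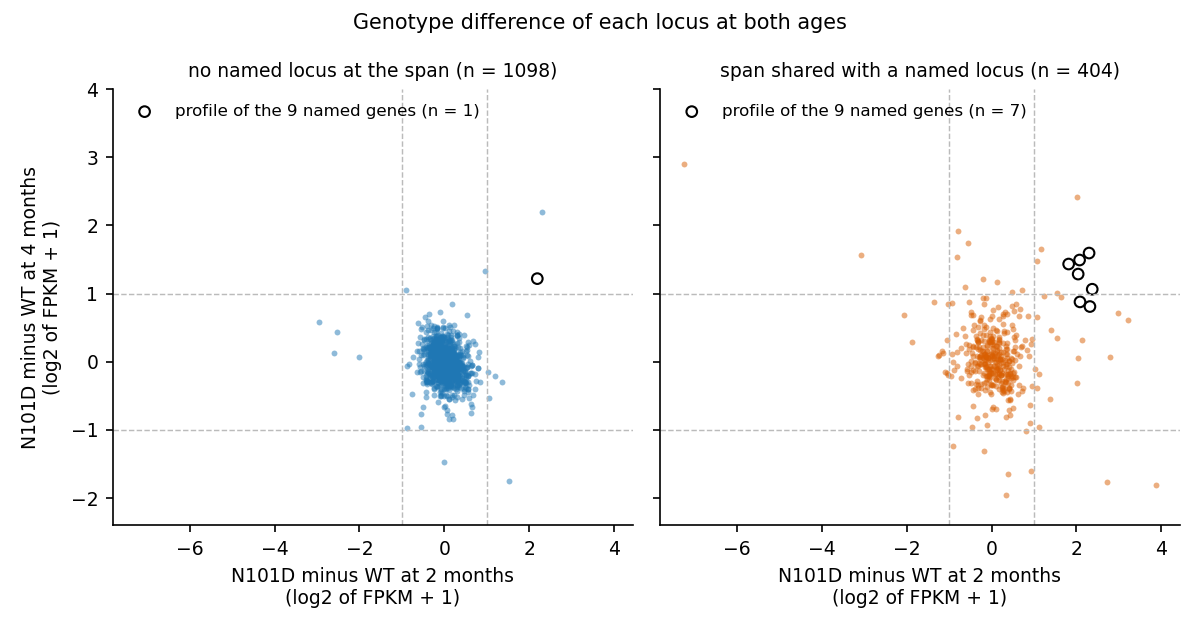
N101D minus WT at 4 months (y axis) against N101D minus WT at 2 months (x axis), both as log2 of FPKM + 1, for solitary loci (left) and span-sharing loci (right); each point is 1 locus, rings mark the 8 loci near the differences of the 9 named genes, and dashed lines mark 2-fold. Solitary loci gather near 0, where 1009 of 1098 lie within 0.5 at 2 months, and most rings stand among the span-sharing loci.

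Of the solitary loci, 4 were 2-fold lower in N101D at 2 months. XLOC_006742, at chr11:19620331-19621575 (mm9), measured 4.79 FPKM in N101D and 44.0 FPKM in WT at 2 months, and 38.8 FPKM in N101D and 25.7 FPKM in WT at 4 months. XLOC_020396, on chromosome 19 between Tmem2 and Trpm3, measured 2.78 FPKM in N101D and 21.8 FPKM in WT at 2 months, and 21.9 FPKM in N101D and 19.9 FPKM in WT at 4 months. XLOC_019117 lay on chromosome 18, 20320 bases from Gnpda1. It measured 1.31 FPKM in N101D and 12.4 FPKM in WT at 2 months. At 4 months it measured 10.7 FPKM in N101D and 7.67 FPKM in WT. In each the N101D library of 2 months was the low one, and the other 3 libraries lay above it. XLOC_015083, on chromosome 16, measured 2.71 FPKM in N101D and 14.0 FPKM in WT at 2 months, and 10.4 FPKM in N101D and 9.86 FPKM in WT at 4 months. Their differences at 2 months ran from -2.96 to -2.01, and at 4 months from 0.07 to 0.58. The summed pigment cell genes moved in the same library, at 42.0 FPKM in N101D and 437 FPKM in WT at 2 months, with 8 of the 12 genes 2-fold lower, and Dct and Tyrp1 at 3.17 and 1.97 FPKM in N101D. The 5 leukocyte genes summed to 0.802 FPKM in N101D and 11.8 FPKM in WT at 2 months, with 4 of them 2-fold lower. For 5 lens epithelium genes the sums were 120 FPKM in N101D and 199 FPKM in WT, with 2 of them lower, and for 5 blood genes 147 FPKM in N101D and 349 FPKM in WT, with 2 of them lower. For 10 retina genes the sums at 2 months were 419 FPKM in N101D and 465 FPKM in WT, with 0 of them 2-fold lower. At 4 months the leukocyte sums were 12.2 FPKM (N101D) and 9.45 FPKM (WT) and the epithelium sums 157 FPKM (N101D) and 141 FPKM (WT). The blood sums at 4 months were 122 FPKM (N101D) and 45.6 FPKM (WT), and the retina sums 461 FPKM (N101D) and 777 FPKM (WT). The part of any of these cells in the 4 loci was not tested, and in bulk tissue fewer cells of a type and less RNA per cell cannot be told apart. The reads behind the lower value of XLOC_006742 were 127 (95% Poisson interval 106 to 151) and behind the WT value 2371 (2277 to 2468), which covers counting error only.

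**Figure D4:**
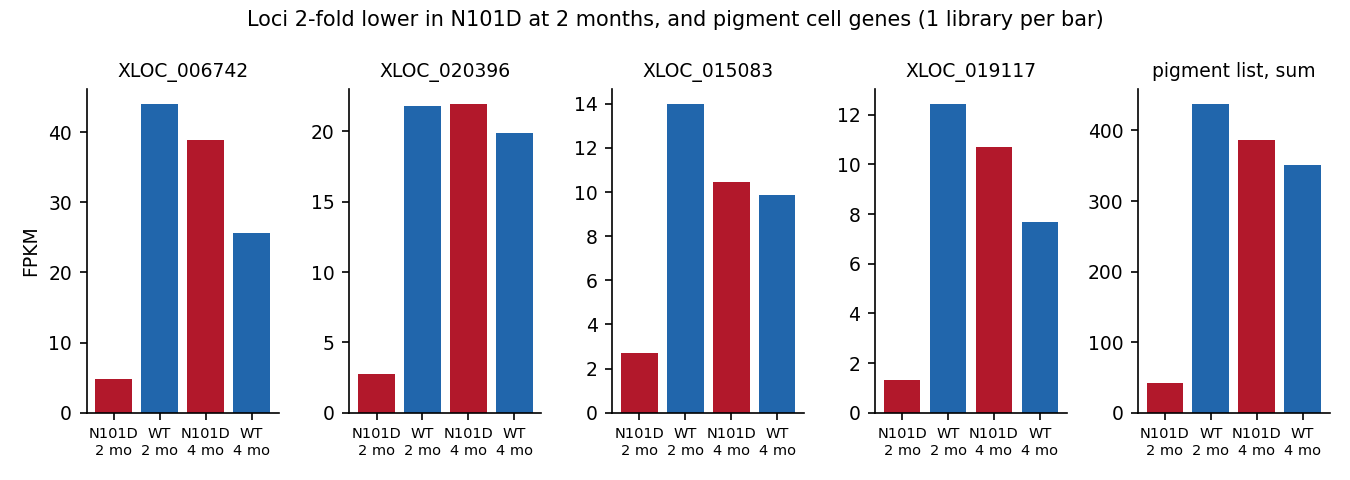
FPKM in each library (1 bar per library, axes from 0, N101D red and WT blue) of the 4 solitary loci 2-fold lower in N101D at 2 months, and at right the summed FPKM of 12 pigment cell genes. The N101D library of 2 months is the lowest in all 5 panels, at 1.31 to 4.79 FPKM for the loci and 42.0 FPKM for the gene sum.

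The other solitary loci with genotype differences were few. XLOC_003120, XLOC_031670 and XLOC_000324 were 2-fold higher in N101D at 2 months and within 0.6 log2 units of WT at 4 months. So was XLOC_028229, at 219663 FPKM in N101D and 85291 FPKM in WT at 2 months. At 4 months it measured 56081 FPKM in N101D and 69100 FPKM in WT. A transcript as long as its span of 170723 bases would need more fragments than any of the libraries holds. XLOC_014606, between Igsf11 and Lsamp on chromosome 16, measured 20.5 FPKM in N101D and 20.5 FPKM in WT at 2 months, and 18.9 FPKM in N101D and 54.0 FPKM in WT at 4 months. There the WT library of 4 months stood above the other 3. XLOC_044408, on the X chromosome between Scml2 and Rai2, measured 7.05 FPKM in N101D and 3.16 FPKM in WT at 2 months, and 7.84 FPKM in N101D and 2.52 FPKM in WT at 4 months. It passed 2-fold at 4 months (1.33) and not at 2 months (0.95). XLOC_005671 measured 2.998 FPKM in N101D and 6.50 FPKM in WT at 2 months, and 7.18 FPKM in N101D and 2.93 FPKM in WT at 4 months, so its order turned round between the ages.

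Age gave more 2-fold differences in N101D than genotype did at either age, though the N101D age comparison shares libraries with both genotype comparisons. The 4-month level was 2-fold different from the 2-month level at 94 loci (6.26%) in N101D, 42 higher and 52 lower, against 11.4% of the 18298 loci (8.55% higher, 2.84% lower) and 3.81% of named loci by the same rule. That split turned to 127 higher and 33 lower with equal totals outside crystallins, and to 254 higher and 111 lower with no minimum FPKM. In WT it was so at 54 loci (3.60%), 32 higher and 22 lower, against 3.69% of the 18298 loci (1.99% higher, 1.71% lower) and 1.2% of named loci by the same rule. Levels at the 2 ages come from separately estimated tables. Span-sharing loci gave 58 in N101D and 35 in WT, and solitary loci 36 in N101D and 19 in WT. Named rows at shared spans were 2-fold different in 4.42% of cases in N101D and 0.875% in WT. In N101D 25 of the 36 solitary loci were lower at 4 months, and in WT 8 of 19 were.

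A total of 17 loci were 2-fold lower at 4 months in both genotypes, against 0.787% of the 18298 loci and 0.354% of named loci by the same rule. Another 8 were 2-fold higher, against 0.514% and 0.182%. Of the 17, XLOC_006469 had the lowest difference in both genotypes. It is a solitary locus of the second block at chr11:111371854-111373762 (mm9), between Kcnj2, a potassium channel gene 433715 bases away, and BC006965. It measured 5.47 FPKM in N101D and 7.75 FPKM in WT at 4 months, against 239 FPKM in N101D and 194 FPKM in WT at 2 months. Both 2-month libraries stood far above both 4-month libraries, and the difference was -5.21 in N101D and -4.48 in WT. Kcnj2 ranged from 0.0634 to 0.0814 FPKM in the 4 libraries. XLOC_016725 lay 164179 bases before Crim1, a membrane protein of lens cells. It measured 4.80 FPKM in N101D and 6.42 FPKM in WT at 4 months. At 2 months it measured 17.04 FPKM in N101D and 19.8 FPKM in WT. XLOC_000947 lay on chromosome 1, 71037 bases from Mlph. It measured 2.58 FPKM in N101D and 2.84 FPKM in WT at 4 months. At 2 months it measured 9.18 FPKM in N101D and 9.65 FPKM in WT. XLOC_025020 lay 2310 bases from the listed span of Fabp5, a fatty acid binding protein gene, and measured 2.06 FPKM in N101D and 2.70 FPKM in WT at 4 months, against 12.1 FPKM in N101D and 8.49 FPKM in WT at 2 months. XLOC_019265, 47042 bases from Malt1, and XLOC_022317 and XLOC_033330, given above, complete the 7 solitary loci that were lower. In 5 of the 7 both 4-month values lay below both 2-month values. In XLOC_022317 and XLOC_033330 the N101D value at 4 months was above the WT value at 2 months.

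**Figure D5:**
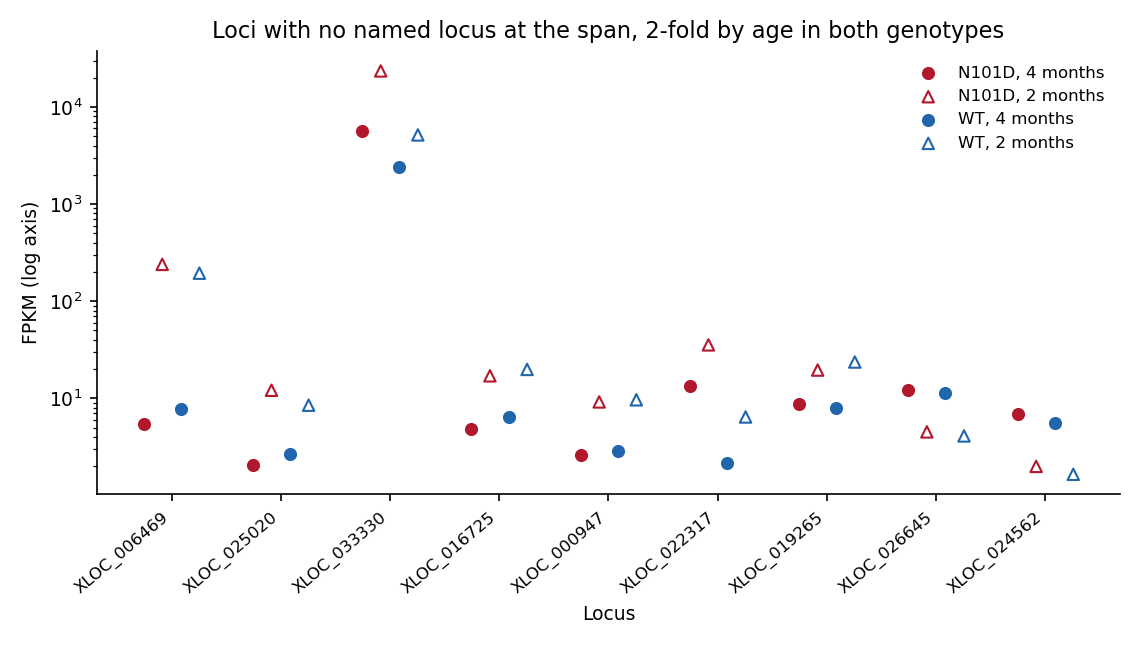
FPKM (log axis) of the 9 solitary loci that were 2-fold different by age in both genotypes; filled circles are 4 months and open triangles 2 months, N101D red and WT blue, 1 point per library. XLOC_006469 shows the widest gap, 5.47 and 7.75 FPKM at 4 months against 239 and 194 FPKM at 2 months, and the 2 loci at right are higher at 4 months.

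Solitary loci that were higher at 4 months in both genotypes were 2. XLOC_026645 lay on chromosome 4, 37508 bases before Gm829. It measured 12.2 FPKM in N101D and 11.5 FPKM in WT at 4 months. At 2 months it measured 4.51 FPKM in N101D and 4.10 FPKM in WT. XLOC_024562 lay 2090 bases past the end of 4930583H14Rik and measured 6.97 FPKM in N101D and 5.52 FPKM in WT at 4 months, against 1.99 FPKM in N101D and 1.65 FPKM in WT at 2 months. At both loci the genotypes were close within an age while the ages were apart. That neighbour, 4930583H14Rik, ranged from 652 to 749 FPKM over the 4 libraries.

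Of the span-sharing loci, 10 were 2-fold lower and 6 were 2-fold higher at 4 months in both genotypes. Examples with the named gene at their span follow, chosen after their values were seen. XLOC_001750 had the span of Cryga, gamma A crystallin, and measured 166 FPKM in N101D and 287 FPKM in WT at 4 months, against 1030 FPKM in N101D and 761 FPKM in WT at 2 months. Cryga itself measured 46.7 FPKM in N101D and 242 FPKM in WT at 4 months, against 1700 FPKM in N101D and 1026 FPKM in WT at 2 months, so both rows were lower at 4 months. XLOC_026364, in the span of Ank2 (ankyrin B, a membrane anchor of fibers), measured 2.58 FPKM in N101D and 2.45 FPKM in WT at 4 months, against 7.71 FPKM in N101D and 9.04 FPKM in WT at 2 months. Ank2 stood at 59.6 to 76.9 FPKM. XLOC_018933, in the span of Cdh2 (N-cadherin), measured 33.5 FPKM in N101D and 14.4 FPKM in WT at 4 months, against 5.60 FPKM in N101D and 5.01 FPKM in WT at 2 months. Cdh2 itself was lower at 4 months, at 23.7 FPKM in N101D and 31.0 FPKM in WT, against 40.3 FPKM in N101D and 39.98 FPKM in WT at 2 months. XLOC_015415, in the span of B3gnt5 and Lamp3, measured 182 FPKM in N101D and 87.6 FPKM in WT at 4 months, against 24.5 FPKM in N101D and 14.4 FPKM in WT at 2 months.

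A fit over all 18298 loci with age and genotype as additive terms (limma, Benjamini-Hochberg adjustment) was the 1 test that the design allows. For genotype it called 0 of the 1502 loci and 1 locus in all (0.00547%). At an unadjusted p under 0.05 it held 41 of the 1502 (2.73%), against 2.39% of all loci. The lowest adjusted p among members was 0.302, limma, at XLOC_022317, with a difference of 2.25 ± 0.17 (SE). For age it called 1 of the 1502 loci, XLOC_006469, and 2 loci in all (0.0109%). At an unadjusted p under 0.05 it held 180 of the 1502 (12.0%), against 9.53% of all loci. At XLOC_006469 the difference, 4 minus 2 months, was -4.85 ± 0.24 (SE, log2 scale) with an adjusted p of 0.0371 in limma, and the 4-month level was the lower in both genotypes. That call was lost with a pseudocount of 0.1 (adjusted p 0.0648), after quantile normalization (0.136) and with a prior that does not follow the mean (0.451). XLOC_015415 followed with 2.68 ± 0.20 (SE) and an adjusted p of 0.108 in limma. With 1 residual degree of freedom, this fit uses the 2 ages as replicates for genotype and the 2 genotypes as replicates for age. Its p-values reflect differences among 4 libraries only and may be technical in origin.

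The highest levels belonged to rows whose span cannot be their transcript. XLOC_044057, in the span of Il1rapl1 on the X chromosome, measured 9173910 FPKM in N101D and 624840 FPKM in WT at 2 months, and 439771 FPKM in N101D and 1535450 FPKM in WT at 4 months. XLOC_028107, in the span of Lingo2, Mir876 and Mir873, measured 101.4 FPKM in N101D and 15606 FPKM in WT at 2 months, and 23509 FPKM in N101D and 3134 FPKM in WT at 4 months. In both loci the genotype order turned round between the ages. If a transcript covered the whole span, 14 span-sharing loci and 1 solitary locus would need more fragments than a library holds, and 63 and 7 would need more than 1% of it. Il1rapl1 and Lingo2 themselves stayed under 0.14 FPKM. XLOC_039482, 140 bases before Hmox1, the gene of heme oxygenase, measured 5083 FPKM in N101D and 1773 FPKM in WT at 2 months, and 1506 FPKM in N101D and 5084 FPKM in WT at 4 months. Hmox1 measured 163 FPKM in N101D and 159 FPKM in WT at 2 months, and 116 FPKM in N101D and 124 FPKM in WT at 4 months, and did not follow that order. By contrast, XLOC_023308, the longest span at 2056826 bases (Lrp1b), measured 1.29 to 1.98 FPKM.

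Solitary loci of high level were mostly short. Those with a mean of 100 FPKM or more numbered 70, with a median span of 913 bases. Of them 62 (88.6%) lay within 0.5 log2 units between genotypes at 2 months and 66 (94.3%) at 4 months, against 91.9% and 95.4% of all 1098 solitary loci. By age 51 (72.9%) did so in N101D and 52 (74.3%) in WT, against 79.6% and 89.4% of all solitary loci. XLOC_033971, 815 bases on chromosome 6 between Prok2 and Rybp, measured 2375 FPKM in N101D and 2162 FPKM in WT at 2 months, and 2208 FPKM in N101D and 2455 FPKM in WT at 4 months. XLOC_023307, 39324 bases from Lrp1b, measured 862 FPKM in N101D and 895 FPKM in WT at 2 months, and 1040 FPKM in N101D and 1060 FPKM in WT at 4 months. Neither differed by more than 0.5 log2 units in any of the 4 comparisons. XLOC_041867, between Scamp5 and Rpp25 on chromosome 9, measured 2936 FPKM in N101D and 3573 FPKM in WT at 4 months, against 5685 FPKM in N101D and 5495 FPKM in WT at 2 months. Which sequence these rows hold was not analysed here, since no genome of the files' build was on hand.

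Differences of a span-sharing locus and of the named row at its span were set side by side. For 310 pairs in which the named row reached 1 FPKM, Pearson's r across pairs was 0.14 for genotype at 2 months, 0.02 for genotype at 4 months, 0.26 for age in N101D and 0.11 for age in WT. This is a description across loci, which share libraries and are not independent. In those pairs 33 members and 6 named rows were 2-fold different by genotype at 2 months, and 1 pair was so in the same direction. For age in N101D they were 45 members and 16 named rows, with 3 pairs in the same direction. Among 57 solitary loci within 1000 bases of a named locus of at least 1 FPKM, r was 0.14, 0.02, 0.24 and 0.004 in the same order of comparisons.

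Loci on the sex chromosomes and on the mitochondrial chromosome are described by their values. The X chromosome held 102 of the 1502 loci (6.79%), against 3.27% of named loci by the same rule. The 1 locus on the Y chromosome, XLOC_044541 in the span of Ddx3y, measured 3.26 FPKM in N101D and 5.25 FPKM in WT at 2 months, and 7.41 FPKM in N101D and 7.59 FPKM in WT at 4 months. Ddx3y itself was at 0.303 FPKM in the N101D library of 2 months, so the row without a symbol was above its named partner there. On the mitochondrial chromosome 2 rows without a symbol had the whole chromosome as span. XLOC_042618, the member, measured 644 FPKM in N101D and 1190 FPKM in WT at 2 months, and 581 FPKM in N101D and 1138 FPKM in WT at 4 months. The other, XLOC_042617, measured 1060 FPKM in N101D and 729 FPKM in WT at 2 months, and 750 FPKM in N101D and 581 FPKM in WT at 4 months. The rows thus ran in opposite directions by genotype at both ages, by -0.88 and -0.97 in the member and by 0.54 and 0.37 in the other row.

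The limits of the rule cut through a continuum. The members of lowest level just inside the FPKM limit had minima of 1.00035 (XLOC_031022), 1.00116 (XLOC_022389) and 1.00232 (XLOC_033491) FPKM, and the loci just outside 0.999694, 0.998723 and 0.995627 FPKM. The shortest members had spans of 601 and 602 bases, and the longest loci below the limit 599, 597 and 596 bases.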

How the data were processed

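Total lens RNA (Trizol) was sequenced from TruSeq libraries, per the labels' protocols. The authors deposited 1 FPKM table per library. Reads were aligned to mm9, and the tools listed are Cuffdiff, Cufflinks 1.0.3, TopHat 1.2.0 and CASAVA 1, per the submitters' processing notes. No source used here states the annotation or the Cuffdiff version. Each deposited table holds 44597 rows, of which 15488 have no symbol, and status was the same within an age. Positions are as listed on mm9, and a mitochondrial start of 0 shows that starts count from 0. Rows listed as FAIL were left out.

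The members and lists were chosen with earlier results of these data known. Differences are log2(FPKM + 1) with no further scaling. Rows of 1 FPKM or more in at least 1 library (18298), of any span and not merged by position, entered the limma fit (limma 3.58.1 in R 4.3.3). The fit had 1 residual degree of freedom, and the prior added 4.19. It was tested on simulated data. Depth was the step at which FPKM times length, less 159 to 167 bases, gave whole reads within 0.05, in 91.0% to 97.5% of 669 to 2390 values. These steps were not turned into a count table, because most rows can hold several transcripts. The labels give no replicate numbers and do not say that the kit marks strand, so antisense reads cannot be told apart from reads of a gene. Tables were handled in Python 3.11.15 with pandas 2.3.3, and figures drawn with matplotlib 3.10.9.

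Members were listed for naming by a rule, and the text gives only part of that list. Of the highest in mean FPKM it leaves out XLOC_044382, XLOC_014336, XLOC_009200, XLOC_031785 and XLOC_028684. It also leaves out several of the largest differences, such as XLOC_023658 and XLOC_023490. The rule took the 10 of highest mean FPKM, those 2-fold by genotype and alike in sign at the 2 ages (up to 10), and the 6 highest and 6 lowest differences in each comparison. It also took the 5 longest, those of lowest p in each fit (up to 3 per direction), those on Y or M, and the 3 on each side of each limit. Loci 2-fold by age in both genotypes, of opposite direction, near a gene start or a microRNA gene, near the 9 named genes, or solitary with a genotype difference or a level of 100 FPKM or more were added after their values were seen. Promoter and microRNA sequences were taken from RefSeq tables on GRCm38.p6, matched by symbol. Alternatives were a pseudocount of 0.1, equal totals outside crystallins, quantile normalization, other limits on level, span and status, leaving out span-sharing loci, counting every row, and a prior without trend.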

Additional observations from a re-analysis of the deposited data

Results flagged for a closer look

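A group of 7 loci, all but 1 of them span-sharing, were 2-fold different in opposite directions at the 2 ages or in the 2 genotypes. None of these differences of differences was tested, since each group has 1 library. The share of loci with opposite directions was not counted among all loci or named loci. Whether 7 is more than in those sets therefore cannot be said. XLOC_044057 (Il1rapl1 span) had a genotype difference of 3.88 at 2 months and -1.80 at 4 months on the log2 scale, and an age difference of -4.38 in N101D and 1.30 in WT. XLOC_028107 (Lingo2, Mir876 and Mir873 span) had -7.25 and 2.91 by genotype, and 7.84 in N101D and -2.32 in WT by age. XLOC_039482, the solitary locus before Hmox1, had 1.52 and -1.75 by genotype, and -1.75 in N101D and 1.52 in WT by age. XLOC_036793 (Tbcb and Polr2i span) had 2.71 and -1.76 by genotype, and -1.33 in N101D and 3.15 in WT by age. XLOC_019195, whose named partner's symbol had turned into a date, had -3.07 and 1.57 by genotype. By age, XLOC_016077 (Atp5j and Gabpa span) had -1.32 in N101D and 1.2 in WT. XLOC_002574, in the span of Prox1, a transcription factor of lens fibers, had -1.02 in N101D and 1.05 in WT. Its FPKM was 1.26 in N101D and 3.37 in WT at 4 months, against 3.57 in N101D and 1.11 in WT at 2 months, while Prox1 stood between 36.6 and 47.9 FPKM.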

How the results depend on the processing

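The counts of 2-fold loci kept within 1.5 times of their values, except as follows. With a pseudocount of 0.1, age in WT gave 86 loci. With equal totals outside crystallins, age in N101D gave 160 (127 higher, 33 lower), its median moved to 0.37, and the split by genotype at 2 months became 22 higher and 41 lower. With no minimum FPKM, 8110 loci gave 152 (60 higher, 92 lower) and 133 (102 higher, 31 lower) by genotype at 2 and 4 months, and 365 (254 higher, 111 lower; N101D) and 151 (81 higher, 70 lower; WT) by age. With status OK at both ages, 517 loci gave 20 by genotype at 4 months and 52 (N101D) and 29 (WT) by age. Without span-sharing loci the counts were 11 and 6 by genotype and 36 (N101D) and 19 (WT) by age. In the additive fit, age called 0 members with a pseudocount of 0.1, after quantile normalization and with a prior without trend. Equal totals gave 8 of the 1502 members by genotype, against 0.825% of the 18298 loci, and 37 by age, against 2.15%. In that setting the prior had infinite degrees of freedom, against 4.19 in the main fit. The majority direction of genotype at 2 months (36 higher, 18 lower) and of age in N101D (42 higher, 52 lower) thus turned with equal totals and with no minimum FPKM. The total outside crystallins was 263281 FPKM in the N101D library of 2 months, with 82435 FPKM of it in the 9 named genes. In the other libraries that total was 186000 to 189094 FPKM. The 77 differences followed singly belonged to loci 2-fold in the same direction at both ages or in both genotypes. Of these differences, 0 fell under 2-fold with a pseudocount of 0.1, 8 with equal totals and 10 after quantile normalization. Differences of other members were not followed singly. Of the 11 loci higher in N101D at both ages, equal totals took XLOC_017352 to 0.60 and XLOC_036997 to 0.70 at 2 months and XLOC_042159 to 0.99 at 4 months. Quantile normalization took XLOC_007437 to 0.98, XLOC_017352 to 0.30 and XLOC_021247 to 0.97 at 2 months, and XLOC_022848 to 0.67 and XLOC_033330 to 0.73 at 4 months. The cause was not tested. No paired analysis was possible because each group has 1 library and the labels give no replicate numbers. Depth limits the members near 1 FPKM in the N101D library of 2 months most.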
